A study of Mus musculus with 5 samples.

Results

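SUZ12 peaks at 9 genes of the Hedgehog signalling pathway were described in mouse embryonic stem cells (ESCs) that lack Mbd3. The genes were chosen by name: the ligands Shh, Ihh and Dhh, the receptor Ptch1, the ligand antagonist Hhip, the transcription factors Gli1, Gli2 and Gli3, and the cilium gene Evc2. The tables name 1942 gene symbols in all, 5 of these 9 among them. A peak within 5 kb of the start site was found at 4 of the 9 genes in at least 1 library. The other 5 had none in any library. Of protein-coding symbols, 8.47% had such a peak in at least 1 library. The 9 genes were chosen with earlier results of these data known, so this count does not measure enrichment.

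SUZ12 belongs to PRC2, a Polycomb complex that represses genes, and its sites were mapped by ChIP-seq, the sequencing of DNA recovered with an antibody against the protein. The 4 SUZ12 libraries came from Mbd3-knockout ESCs of strain 129SV, labelled male and grown with LIF, and differed in what the cells carried. The labels name them WT, deltaMBD, deltaCC and GFP. The first is read here as full-length MBD3, which is part of the NuRD remodeller of chromatin, and the last as a control with no MBD3, since only the names are stated. The mutants, ΔMBD and ΔCC below, are forms of MBD3a from which the domain that binds methyl-CpG, or the coiled coil, was removed. All 4 groups share the Mbd3 knockout. The sources used here do not state which promoter drives each construct, how many clones were used or how much of each protein was made. An input library made without antibody, from cells labelled EBRTcH3, has no peak table here and was not used.

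With 1 library per group, differences between libraries could not be checked against replicates, and none was tested. WT had 1664 gene symbols with a peak within 5 kb, ΔMBD had 1677, ΔCC 1221 and GFP 1051. The tables give the distance of each peak from a start site and no peak height, width or read number, so the depth of the libraries is unknown. How many peaks a gene has may depend on how the caller divides a region, and is no measure of binding strength. A SUZ12 peak table does not check the cell type. Of 6 pluripotency genes, Esrrb alone had a peak, in every library, and Pou5f1, Nanog, Sox2, Klf4 and Zfp42 had none. Since 8.47% of protein-coding symbols had a peak in at least 1 library, nothing is read from this count.

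Hedgehog ligands are secreted proteins that pattern the neural tube, limb, gut and skeleton. A ligand binds PTCH1 and thereby relieves the inhibition of SMO, the signal passes through the primary cilium, and the GLI zinc finger proteins then turn target genes on or off. Ptch1, Hhip and Gli1 are themselves targets of the pathway, so that signalling raises its own inhibitors. PRC2 is known to occupy the CpG-rich start sites of silent developmental regulators in ESCs.

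The promoter windows of 4 of the genes are printed to show the CpG content at start sites that did and did not carry a SUZ12 peak nearby. Ihh and Dhh had peaks in every library, Gli2 in ΔCC alone and Ptch1 in none. Each window holds 250 bases before and 50 after a start site, 5′ to 3′ on the gene's strand, from RefSeq on GRCm38.p6. Capitals mark CpG dinucleotides. The windows lie at chr1:74951623-74951922 on the minus strand (Ihh), chr15:98898491-98898790 on the minus strand (Dhh), chr1:119053570-119053869 on the minus strand (Gli2) and chr13:63565686-63565985 on the minus strand (Ptch1). The peak distances were measured on mm9, and the start site used there can differ from the one in RefSeq.
Ihh: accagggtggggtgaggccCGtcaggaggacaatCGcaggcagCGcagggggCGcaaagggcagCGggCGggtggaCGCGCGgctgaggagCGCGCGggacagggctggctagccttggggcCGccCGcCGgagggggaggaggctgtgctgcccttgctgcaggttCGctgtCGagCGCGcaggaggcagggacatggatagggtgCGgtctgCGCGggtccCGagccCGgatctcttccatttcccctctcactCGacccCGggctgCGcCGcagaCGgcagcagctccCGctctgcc
Dhh: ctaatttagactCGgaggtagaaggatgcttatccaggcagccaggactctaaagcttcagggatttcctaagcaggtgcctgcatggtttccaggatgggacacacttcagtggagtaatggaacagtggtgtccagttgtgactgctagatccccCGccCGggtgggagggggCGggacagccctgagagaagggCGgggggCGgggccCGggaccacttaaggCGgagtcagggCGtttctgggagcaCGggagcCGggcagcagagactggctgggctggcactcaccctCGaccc
Gli2: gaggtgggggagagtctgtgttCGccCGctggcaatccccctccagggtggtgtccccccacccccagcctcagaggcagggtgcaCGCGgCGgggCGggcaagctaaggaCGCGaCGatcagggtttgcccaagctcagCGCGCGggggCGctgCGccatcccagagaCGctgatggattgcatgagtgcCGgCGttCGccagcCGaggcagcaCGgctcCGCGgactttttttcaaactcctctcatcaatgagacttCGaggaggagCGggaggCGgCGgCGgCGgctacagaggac
Ptch1: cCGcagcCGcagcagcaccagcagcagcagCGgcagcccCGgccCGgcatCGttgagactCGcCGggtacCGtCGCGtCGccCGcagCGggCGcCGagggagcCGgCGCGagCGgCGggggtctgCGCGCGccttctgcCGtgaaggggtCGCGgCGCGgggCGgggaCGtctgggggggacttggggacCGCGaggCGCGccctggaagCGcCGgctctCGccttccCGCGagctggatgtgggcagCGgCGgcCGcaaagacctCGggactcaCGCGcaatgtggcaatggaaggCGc

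The Ptch1 window, without a peak in any library, held the most CpG of the 7 Hedgehog windows in the table. It had 47 CpG dinucleotides, a number that 1.83% of protein-coding promoter windows reached. The Gli3 window, also without a peak, had 39. The windows of Ihh and Hhip held 30 each, and Ihh had peaks in every library while Hhip had none. The Gli2 window held 28 and the Evc2 window 19. Dhh had peaks in every library and the fewest CpG, with 12, of which 11 lay in the second 150 bases of the window. At 12, Dhh was at the median of genes listed in no library, which was 12, and below the median of genes listed in every library, which was 21. The ratio of observed to expected CpG was 0.44 for Dhh, 0.77 for Ihh, 0.83 for Gli2 and 1.09 for Ptch1, against a median of 0.57 over 21263 protein-coding windows. Among these genes, then, CpG number did not order those with a peak above those without. The windows of Shh and Gli1 were not used here.

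**Figure D1:**
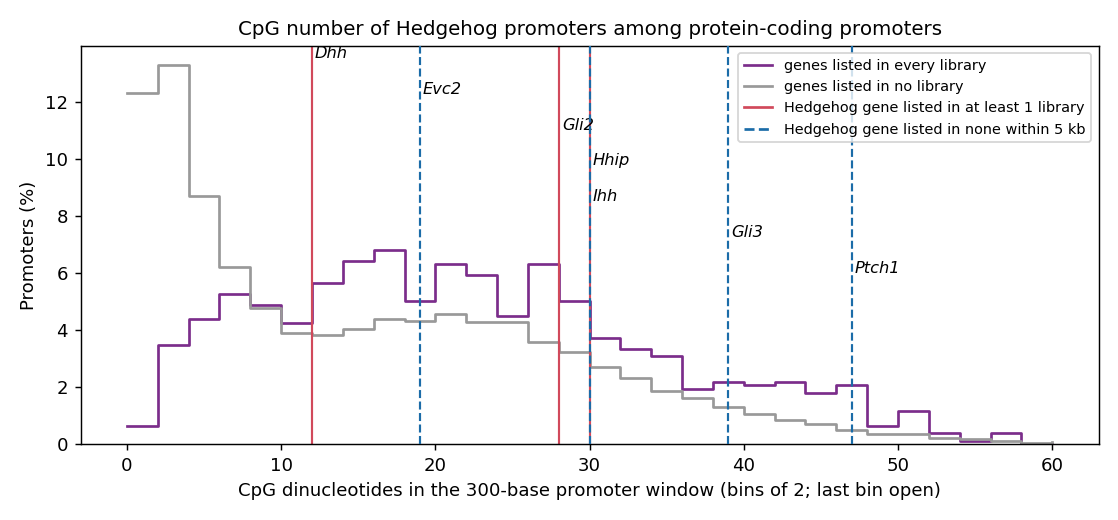
Number of CpG dinucleotides in the 300-base promoter window (x axis, bins of 2) against the percentage of protein-coding promoter windows (y axis), for genes listed in every library (purple) and in none (grey). Vertical lines mark the Hedgehog genes: Dhh at 12, Evc2 at 19, Gli2 at 28, Ihh and Hhip both at 30, Gli3 at 39 and Ptch1 at 47, so the listed genes (solid red) and the others (dashed blue) interleave.

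All 3 ligand genes had a SUZ12 peak within 5 kb in every library, while of the 6 other genes only Gli2 had any, in ΔCC. Below, a gene is called listed in a library where it had such a peak. The members listed were 4 of 9 in ΔCC and 3 of 9 in each other library. Of the 21900 protein-coding symbols, ΔCC listed 5.37%, ΔMBD 7.37%, WT 7.32% and GFP 4.61%, and 3.96% were in all 4. The exact 95% interval of 3 of 9 genes (Clopper-Pearson, counting error over genes only) reached from 7.49% to 70.1%. That of 4 of 9 reached from 13.7% to 78.8%. The members were chosen with earlier results of these data known, so these shares and intervals do not measure enrichment. At the members ΔCC had 9 peaks within 5 kb, ΔMBD 8, WT 4 and GFP 4. Centred within 1 kb of the start site, ΔCC listed 3 members, ΔMBD 3, GFP 2 and WT none, where ΔCC listed 3.86% of protein-coding symbols, ΔMBD 5.33%, GFP 3.16% and WT 5.35%. Of the 25 peaks within 5 kb, 18 were centred downstream of the start site and 7 upstream. None of the 4 GFP peaks lay upstream, against 3 in each mutant and 1 in WT. Over all genes, 33% of GFP peaks lay upstream, 34.3% of ΔCC, 33.2% of ΔMBD and 31.3% of WT peaks. The peaks called differed in number between whole libraries too, as the highest peak number was 4546 for ΔMBD, 4097 for WT, 3558 for ΔCC and 2905 for GFP. The part of sequencing depth in these differences cannot be told apart from that of the constructs.

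**Figure D2:**
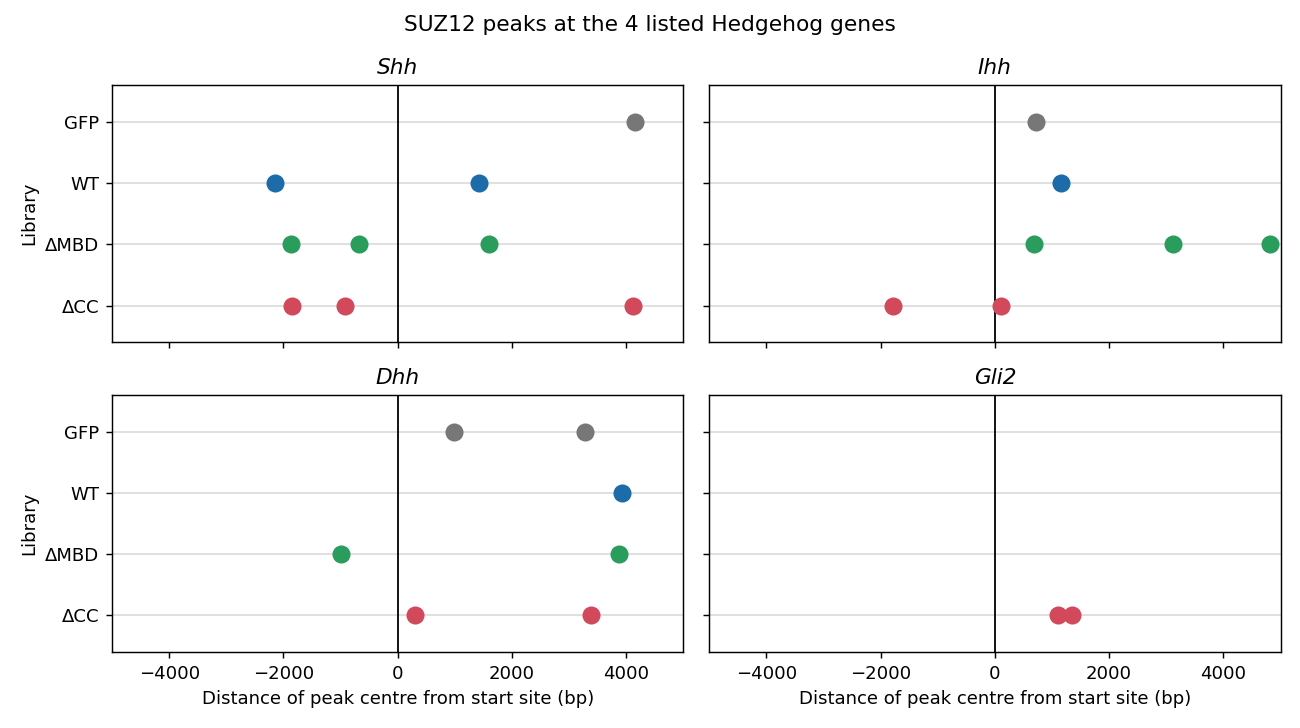
Signed distance of each SUZ12 peak centre from the start site in bp (x axis, negative upstream) by library (y axis), for Shh, Ihh, Dhh and Gli2. Each dot is 1 peak of 1 library. At Shh the GFP peak at 4160 bp stands above the ΔCC peak at 4117 bp, while the downstream peaks of WT and ΔMBD lie at 1417 and 1596 bp.

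Shh (Sonic hedgehog), the ligand of the notochord, floor plate and limb bud, had 3 peaks in ΔCC, 3 in ΔMBD, 2 in WT and 1 in GFP. The single GFP peak was centred at +4160 bp. The WT peaks lay at -2146 and +1417 bp, those of ΔMBD at -1862, -684 and +1596 bp, and those of ΔCC at -1857, -914 and +4117 bp. Upstream of the start site, GFP thus had no peak and the other libraries had 1 or 2. The outermost upstream centres of ΔMBD and ΔCC lay 5 bp apart, and the WT centre lay 289 bp from that of ΔCC. Downstream, the libraries fell into pairs: GFP and ΔCC were 43 bp apart, and WT and ΔMBD were 179 bp apart. A closest gap of 43 bp or less was found at 13.6% of the genes listed in both GFP and ΔCC. For WT and ΔMBD, 43.6% had one of 179 bp or less. The closest GFP and WT centres at Shh were 2743 bp apart, where the median over the 979 genes listed in both was 251 bp and 99.4% had a gap of this size or less. A closest peak as far away as that of Shh in GFP was rare, with 1.43% of the 1051 GFP genes at 4160 bp or farther. In WT, 14.8% of genes had their closest peak at 1417 bp or farther. Genes with at least 3 peaks, the number at Shh, made up 20.2% of the ΔMBD list and 22.3% of the ΔCC list.

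Ihh (Indian hedgehog), the ligand that controls cartilage growth in the long bones, had 3 peaks in ΔMBD, 2 in ΔCC, 1 in WT and 1 in GFP. The GFP peak was centred at +726 bp and the WT peak at +1156 bp. In ΔMBD the centres lay at +693, +3126 and +4819 bp, the last of them the member peak nearest to the 5 kb limit from inside. In ΔCC they lay at -1779 and +101 bp. Every library therefore had a peak between +101 and +1156 bp, and only ΔCC had a peak upstream. The pairs seen at Shh were not seen here: the GFP centre was 33 bp from that of ΔMBD and 625 bp from that of ΔCC. WT and ΔCC were 1055 bp apart, a gap that 95.3% of the 1097 genes listed in both equalled or stayed below. The ΔCC peak at +101 bp was the closest of any member to a start site.

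Dhh (Desert hedgehog), the ligand of the testis and of peripheral nerve sheaths, had 1 peak in WT and 2 in each other library. The GFP peaks were centred at +989 and +3284 bp and the WT peak at +3925 bp. The ΔMBD peaks lay at -990 and +3866 bp, and the ΔCC peaks at +306 and +3383 bp. Every library thus had a peak more than 3 kb downstream. The centres of these far peaks again fell into pairs, with GFP and ΔCC 99 bp apart and WT and ΔMBD 59 bp apart. GFP and WT were 641 bp apart. A closest gap of 99 bp or less was found at 27.8% of the genes listed in both GFP and ΔCC. For WT and ΔMBD, 17.5% had one of 59 bp or less. A peak within 1 kb of the start site was in GFP, ΔMBD and ΔCC and not in WT, and it lay upstream in ΔMBD only. In WT, 1.62% of genes had their closest peak at 3925 bp or farther.

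Partners of member peaks within 1 kb were set beside those over all genes. Closest centres were set beside those over the 900 genes listed in every library. All 4 GFP peaks at the ligand genes had a ΔCC peak centred within 1 kb, and 2 of 4 had one in WT and in ΔMBD. All 4 WT peaks had a ΔMBD peak within 1 kb, and 2 of 4 had one in GFP and in ΔCC. Of the 8 ΔMBD peaks, 4 had a partner in WT, 4 in ΔCC and 2 in GFP. Of the 9 ΔCC peaks, 4 had a partner in GFP, 4 in ΔMBD and 2 in WT. With centres within 500 bp required, 2 of the 4 GFP peaks had a ΔCC partner. Over all genes, 73.3% of GFP peaks had a ΔCC partner, 65.3% a WT partner and 67.1% a ΔMBD partner. Of WT peaks, 77% had one in ΔMBD, 52.1% in ΔCC and 43.3% in GFP. Of ΔMBD peaks, 71.8% had one in WT, 50.1% in ΔCC and 41.1% in GFP. Of ΔCC peaks, 67.7% had one in ΔMBD, 65.7% in WT and 63.1% in GFP. These shares include peaks at genes not listed in the other library, which can have no partner there, as at Gli2 for ΔCC. The ligand genes were listed in every library, so their peaks are set beside shares lowered in this way. At genes listed in every library the closest centre to a GFP peak was in ΔCC for 41.7% of 1705 peaks, in WT for 29.7% and in ΔMBD for 28.3%. For the 4 GFP peaks at the ligand genes it was in ΔCC for 3 and in ΔMBD for 1. The closest centre to a WT peak was in ΔMBD for 39.6% of 1621 peaks, and for 3 of the 4 WT peaks at the ligand genes. Read from the mutants, the closest centre over these genes was in WT for 38.3% of 1830 ΔMBD peaks and in GFP for 38.3% of 1874 ΔCC peaks. At the ligand genes it was in WT for 4 of 8 ΔMBD peaks, but in ΔMBD for 4 of 7 ΔCC peaks and in GFP for 3. Nothing particular to the ligand genes is read from their few peaks.

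Gli2, the main activator of Hedgehog targets, had 2 peaks in ΔCC and none in another library. The centres lay at +1098 and +1342 bp, 244 bp apart. Such a listing, in ΔCC and no other library, was found for 0.205% of protein-coding symbols, which were 3.83% of the 1175 protein-coding symbols in ΔCC. Of the 47 symbols listed in ΔCC alone, 4 had at least 2 peaks, and Gli2 was 1 of them. The others were Adcyap1, which encodes the neuropeptide PACAP, Ccr10, a chemokine receptor, and Ppargc1b, a coactivator of mitochondrial genes. Inhbb, which encodes an activin subunit and neighbours Gli2, had 1 peak in GFP, WT and ΔMBD and 3 in ΔCC. Without widths or heights, a Gli2 region below the caller's threshold in the other libraries cannot be told apart from an absent one.

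Ptch1, Hhip, Gli1 and Gli3 had no linked peak in any table. Ptch1 encodes the receptor that holds SMO inactive, Hhip a membrane protein that sequesters the ligands, Gli1 an activator that is induced by the pathway, and Gli3 the factor that in its processed form is the main repressor. A gene without a linked peak was not shown to lack SUZ12, since, outside curated domains, links reach 5 kb at most and skip any gene beyond the closest on either side. Arhgap9, which neighbours Gli1, had 2 peaks in WT, 1 in each mutant and none in GFP. Of the 18 protein-coding neighbours of the 9 members in RefSeq, Arhgap9 and Inhbb were the 2 with a peak, and the other 16 had none. Over all protein-coding symbols, 8.47% had a peak in at least 1 library, so nothing particular to the neighbours is read from this count.

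Evc2 encodes a protein at the base of the primary cilium that passes the Hedgehog signal on from SMO. It had no peak within 5 kb in any library, but its line in the tables held 5 links in ΔCC, 4 in ΔMBD, 2 in WT and 1 in GFP, all 8.93 to 8.95 Mb from its start site. Of these 12 links, 9 were to peaks that were also linked to Shh, and they included every Shh peak of every library. For each of the 9, the distances from Shh and from Evc2 added up to the same value, 8936097 bp in size. The 3 remaining links, to peaks linked to no other gene, could thus be placed on the Shh scale. They lay 11184 bp downstream of the Shh start site in ΔMBD and 7258 and 10308 bp downstream in ΔCC. The peak at 7258 bp was the nearest outside the 5 kb limit. In GFP and WT, no peak beyond 5 kb was listed in this way. The Evc2 links are therefore described with Shh and were not counted as peaks at Evc2.

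**Figure D3:**
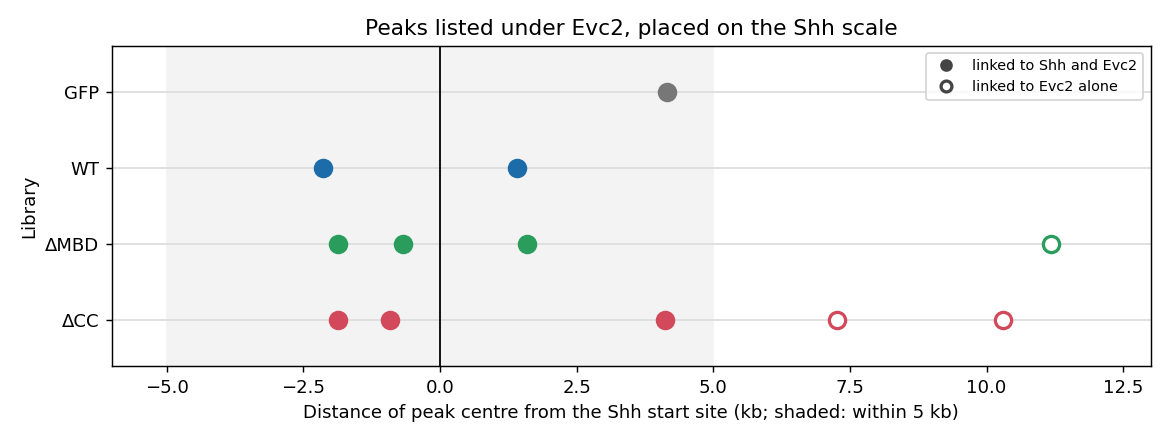
Peaks listed under Evc2, placed by their distance from the Shh start site in kb (x axis, shaded within 5 kb) in each library (y axis). Filled dots are the 9 peaks linked to both genes, and open dots the 3 linked to Evc2 alone, at 11.2 kb in ΔMBD and at 7.26 and 10.3 kb in ΔCC.

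The homeobox genes En2 and Mnx1, which lie on both sides of Shh and were picked after their values were seen, had peaks in every library. En2, a gene of the midbrain and cerebellum, had 5 peaks in ΔCC, 3 in GFP, 1 in WT and 1 in ΔMBD. Mnx1, a gene of motor neurons and pancreas, had 2 in ΔMBD and 3 in each other library. At genes with at least 2 peaks, the order of the peak numbers was that of position for all 546 genes of GFP, 626 of 627 of ΔCC, 751 of 752 of WT and 909 of 910 of ΔMBD. If numbers follow position between genes too, those left between the last En2 peak and the first Shh or Evc2 peak count further peaks there. There were 3 in WT, 1 in each mutant and none in GFP. Between Shh and Mnx1 there were 2 in WT and 1 in each other library. Whether these further peaks are linked to another gene was not checked. If the order holds, the GFP peak at +4160 bp was the only one between the last En2 peak and the Shh start site.

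The rest of the pathway was read from 3 lists with 52 genes in all. Most known targets of the signal were listed, many of them already known to be so when the list was drawn up. Some genes that act outside the receiving cell or at its surface were listed too, and none of the cilium and of transduction. Of 14 genes of ligand processing, release and reception, WT, ΔMBD and ΔCC each listed 3 (21.4%) and GFP listed 1 (7.14%), beside 7.32%, 7.37%, 5.37% and 4.61% of protein-coding symbols, and 10 were in none. Gas1, a co-receptor that promotes signalling, had 1 peak in each library, centred at +866 bp in ΔCC, +1153 bp in ΔMBD, +1266 bp in GFP and +1330 bp in WT. Lrp2, an endocytic receptor that binds Shh in the forebrain, had 2 peaks in WT (the closest at +6 bp), 2 in ΔMBD (+262 bp), 1 in ΔCC (+386 bp) and none in GFP. Scube1, a secreted protein related to a factor for ligand release, had 1 peak in WT at +807 bp and 1 in ΔMBD at +597 bp. Boc, a further co-receptor, had 1 in ΔCC alone, at +644 bp. Smo, the signal transducer that PTCH1 inhibits, and Sufu, a binding partner of the GLI proteins, had no peak. None of the 20 cilium and transduction genes was listed in any library, and the interval of 0 of 20 genes reached 16.8%, above the share of all protein-coding symbols, so the list was too short to show depletion.

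Of 18 known targets in neural tube and mesoderm, WT and ΔCC each listed 16 and GFP and ΔMBD each 15, and 15 were in all 4 libraries. Of protein-coding symbols, WT listed 7.32%, ΔCC 5.37%, GFP 4.61% and ΔMBD 7.37%, and 3.96% were in all 4. The targets, mostly transcription factors and secreted proteins, have roles beyond the Hedgehog response, and many were already known to be listed when the list was drawn up. Olig2, which specifies motor neuron progenitors, had 1 peak in each library, at +722 bp in ΔCC, +1082 bp in GFP, +1097 bp in ΔMBD and +1181 bp in WT. Nkx2-2, of the progenitors next to the floor plate, had 2 peaks in GFP and ΔCC and 1 in WT and ΔMBD. Foxa2, of the floor plate itself, had 3 in ΔCC, 2 in GFP and 1 in WT and ΔMBD. Nkx6-2, a homeobox gene of the ventral neural tube, had 3 in GFP and ΔCC and 1 in WT and ΔMBD. Its relative Nkx2-9 had 4 in WT and ΔCC, 3 in GFP and 2 in ΔMBD. Among the mesoderm targets, Nkx3-2, a factor of the sclerotome, had 4 peaks in ΔCC, 3 in GFP, 2 in ΔMBD and 1 in WT. The forkhead genes Foxf1, Foxf2 and Foxc2 had 1 peak in each library but GFP, where they had 3, 2 and 2. Pax1 had 3 in GFP and WT, 2 in ΔCC and 1 in ΔMBD, and Pax9 had 1 in each library. At least 2 peaks were found at 12 of the 15 targets listed in GFP, 9 of 16 in ΔCC, 4 of 16 in WT and 4 of 15 in ΔMBD. Over all listed genes the share with at least 2 peaks was 54.3% for ΔMBD, 52% for GFP, 51.4% for ΔCC and 45.2% for WT.

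Of the remaining targets, Nkx6-1 had 3 peaks in GFP, 2 in ΔMBD and 1 in WT and ΔCC. Sfrp1, an inhibitor of Wnt ligands, had 3 in ΔCC, 2 in GFP and WT and 1 in ΔMBD. Grem1, an antagonist of BMP ligands, had 2 in GFP and ΔCC and 1 in WT and ΔMBD. Ccnd1, the gene of a cyclin of the early cell cycle, had 3 in WT and ΔMBD, 2 in ΔCC and 1 in GFP. Jag2, a ligand of Notch, had 1 in ΔCC at +58 bp, 1 in WT at +417 bp, and none in GFP or ΔMBD. Mycn and Foxl1 had none. Read against GFP, 3 of the 52 genes were listed in WT and not in GFP, where 3.01% of protein-coding symbols were. In ΔMBD they were 2 of 52, also beside 3.01%, and in ΔCC 3 of 52, beside 1.11%. None of the 52 was listed in GFP and missing from WT, ΔMBD or ΔCC, where 0.297%, 0.256% and 0.361% of symbols were. These 3 readings share the GFP library. Of the 9 members, Gli2 in ΔCC was the 1 gene listed in a library with an MBD3 construct and not in GFP.

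**Figure D4:**
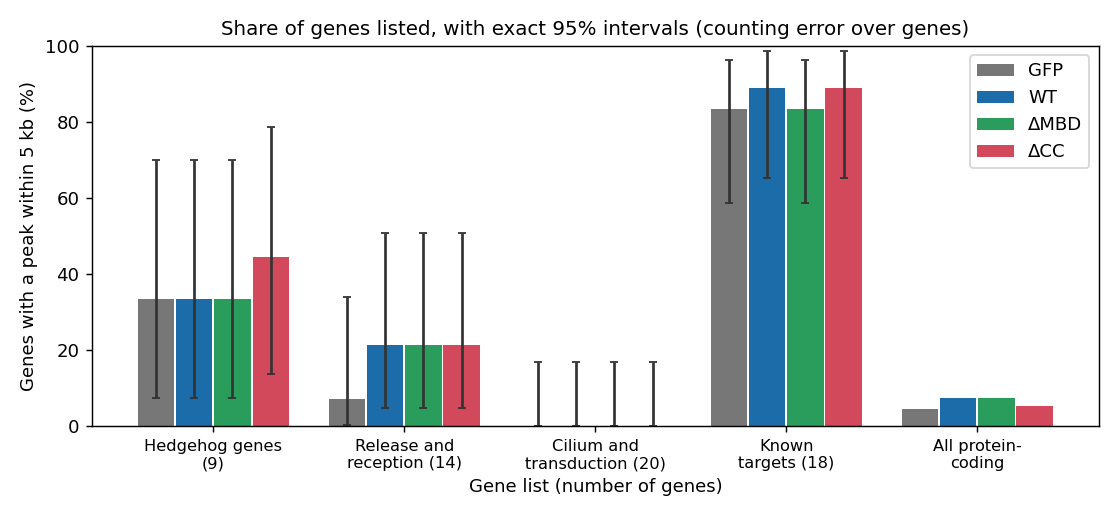
Percentage of genes with a SUZ12 peak within 5 kb (y axis) by gene list (x axis) and library (colours), with exact 95% intervals over genes. The known targets reach 83.3% to 88.9%, the Hedgehog genes 33.3% to 44.4%, the cilium and transduction genes 0, and all protein-coding genes, drawn without an interval, 4.61% to 7.37%. The Hedgehog genes and the lists were chosen with earlier results of these data known. Many of the known targets were already known to be listed when their list was drawn up. The shares and intervals therefore do not measure enrichment.

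**Figure D5:**
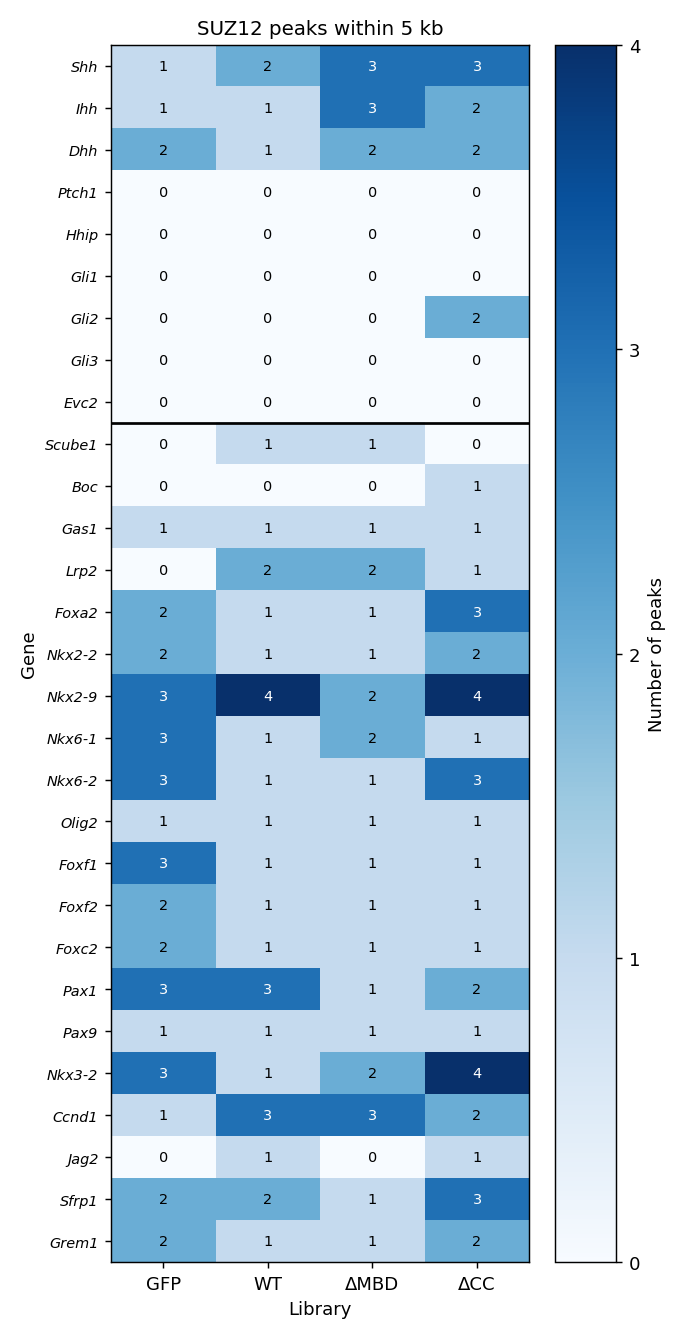
Number of SUZ12 peaks within 5 kb by gene (rows) and library (columns), with the 9 Hedgehog genes above the line and the listed genes of the wider pathway lists below it. The 3 ligands have 1 to 3 peaks in every library, while Ptch1, Hhip, Gli1, Gli3 and Evc2 have 0 throughout.

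Likeness of peak numbers over the 4 libraries was measured as the sum of absolute differences. Dnaja4, a heat shock co-chaperone gene, Homer2, a scaffold gene of synapses, and Rgl3, a regulator of small GTPases, had the same numbers as Shh, at a sum of 0. For Ihh, 13 genes had the same numbers, and for Dhh 15. Adcyap1, Ccr10 and Ppargc1b had those of Gli2. With 4 libraries and counts of 0 to 3 at these genes, equal numbers describe these tables only.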

How the data were processed

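SUZ12 ChIP-seq peaks of 4 libraries were read from the deposited tables. Per the submitters' processing notes, bcl2fastq 2.18.0.12, MACS2 and mm9 were used; the aligner, the MACS2 settings, the peak threshold and whether the input served as control are not stated in them or in the headers. Per the file headers, the authors linked peaks to genes with GREAT 3.0.0 (nearest genes on both sides, 5000 bp at most, curated regulatory domains added). The deposited values are peak names and signed distances in bp; no other unit is given in them.

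A gene was listed where a linked peak was centred within 5000 bp, and peaks of different libraries were partners within 1000 bp at the same gene. Lines that repeat a symbol were joined. Of 1942 symbols, 1833 matched RefSeq (GRCm38.p6) by symbol, 59 by 1 synonym and 50 not. All 9 members matched. CpG was counted in 300-base RefSeq windows, of which 7 members had an entry; observed to expected CpG is the CpG number times the length over the product of C and G numbers. With 1 library per group there is no test. Intervals are exact Clopper-Pearson at 95%.

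The members and lists were chosen with earlier results of these data known. Named genes were the members, genes sharing their peaks, listed genes of the pathway lists, and genes with the most like peak numbers (the number alone where over 5 tied); En2, Mnx1, the RefSeq neighbours and the relatives by name were added after values were seen. The pluripotency list served as a description. Alternatives were windows of 1000 and 2500 bp, all distances, at least 2 peaks, and partners within 500 or 2000 bp. The functions were tested on simulated data. Python 3.11.15, SciPy 1.17.1 and matplotlib 3.10.9 were used.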

Additional observations from a re-analysis of the deposited data

How the results depend on the processing

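The members listed were the same with links at any distance except for Evc2, which then joined in every library, and the ΔCC links were then 14 in place of 9. Counting each peak once at any distance, an alternative chosen after the data were seen, gave 11 peaks in ΔCC, 9 in ΔMBD, 4 in WT and 4 in GFP. At 1000 bp the members listed in WT were 0 in place of 3, and the member peaks were 3 in ΔCC, 3 in ΔMBD, 2 in GFP and 0 in WT. At 2500 bp the member peaks were 2 in GFP and 5 in ΔMBD. With at least 2 peaks required, 1 member was listed in GFP and 1 in WT, against 3 in ΔMBD and 4 in ΔCC.

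The wider pathway genes listed were 19 in WT, 19 in ΔCC, 18 in ΔMBD and 16 in GFP. At 1000 bp they were 13 in ΔCC, 11 in ΔMBD, 10 in GFP and 9 in WT. With at least 2 peaks GFP listed 12, ΔCC 9, WT 5 and ΔMBD 5, so GFP was the lowest in the first count and the highest in the last. Partners within 500 bp fell to 2 between GFP and ΔCC in both directions, and to 1 for GFP with WT, GFP with ΔMBD and WT with ΔCC in both directions, while all 4 WT peaks kept a ΔMBD partner. At 2000 bp, 4 ΔCC peaks had a WT partner. Each alternative changes how many peaks or genes pass its limit, and the cause of these shifts was not tested. A stricter peak threshold was not run, since the tables hold no score. No paired analysis was possible because each group has 1 library. Depth is unknown, and a gene without a peak may have SUZ12 below the caller's threshold.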

Other observations

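Genes related to the pathway by name and sequence family, taken as all protein-coding RefSeq symbols that begin with Glis, Ptchd or Hhipl, were looked up after the other values were known. Glis1 and Glis3 encode zinc finger proteins related to the GLI factors. Glis1 had 1 peak in ΔCC and 2 in each other library, with the closest centre at -419 bp in ΔMBD, +468 bp in WT, +579 bp in GFP and +983 bp in ΔCC. Glis3 had 2 peaks in GFP and ΔCC and 1 in WT and ΔMBD, the closest at +292 bp in WT, +350 bp in ΔCC, +480 bp in GFP and +969 bp in ΔMBD. Ptchd1, which encodes a membrane protein with a patched domain, also had 2 peaks in GFP and ΔCC and 1 in WT and ΔMBD, the closest at +94 bp in ΔMBD, +198 bp in GFP, +286 bp in ΔCC and -931 bp in WT. Its relative Ptchd4 had 1 peak, in WT, at +850 bp. Glis2, Ptchd3, Hhipl1 and Hhipl2 had none. Of these 8 genes, 3 were thus listed in all 4 libraries and 4 in none. Of the 9 members, 3 were likewise listed in all 4 libraries and 5 in none. The share of protein-coding symbols listed in all 4 was 3.96%.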
